A study of Homo sapiens with 12 samples.

Results

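The collagen genes are the protein-coding genes whose GENCODE symbol has the form COL, a number, A and a number. This rule found 44 genes among 19967 protein-coding and 61533 annotated genes, with 448 transcripts in all. Their RNA was compared among 3 human ovarian cell lines with 4 libraries each. T1074 is a non-malignant line of ovarian epithelial cells immortalized with SV-40. PEO-4, per the study a high-grade serous tumour line, was taken from ascites after chemotherapy had ceased to work, and its label gives ovarian cystadenocarcinoma. SKOV-3 is an ovarian carcinoma line that the study's text describes as clear cell carcinoma and the label as serous cystadenocarcinoma. No treatment is given for any line, and all 12 samples carry the genotype WT. Each line grew in a medium of its own with fetal bovine serum (Prigrow I for T1074, an RPMI medium for PEO-4 and McCoy's medium for SKOV-3), so the line and its medium cannot be told apart. Each line stands for 1 cell population, and the labels do not say that its 4 aliquots came from separate cultures, so the p-values cover only the spread among these aliquots, which could be technical.

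Collagens are proteins of the extracellular matrix whose alpha chains wind into triple helices. Fibrillar collagens such as types I, III and V assemble into the cable-like fibres of connective tissue, whereas type IV collagen forms the sheet-like network of basement membranes, on which epithelial cells rest. Other classes sit on the surface of fibrils, build beaded filaments or anchoring fibrils, span the cell membrane, or, as in the multiplexins, carry a fragment that is released by cleavage (endostatin in type XVIII).

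The chains were placed in 9 classes, namely 11 fibrillar, 6 basement membrane, 5 beaded filament, 1 anchoring fibril, 3 short-chain network, 10 fibril-associated, 4 transmembrane, 2 multiplexin and 2 other collagen genes. Levels of 1 gene between libraries are given as CPM, that is counts scaled to library size, with TMM scaling factors, and levels of different genes as FPKM, which also divides by effective transcript length. A gene was called different when its adjusted p, from the quasi-likelihood F-test of edgeR with the adjustment of Benjamini and Hochberg over all 19898 genes tested, was below 0.05. Errors of levels are SD over 4 libraries and errors of fold changes are standard errors.

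The pairs of type IV genes lie head to head, and the stretch between a pair is printed because the data below compare the members of each pair. Between the RefSeq starts of COL4A1 and COL4A2 lie 126 bases, and the 100 bases between the start of COL4A1 and the first annotated exon of COL4A2 after it are at chr13:110307158-110307257 (GRCh38, plus strand). COL4A4 and COL4A3 are separated by the 170 bases at chr2:227164454-227164623 in GENCODE. Capitals mark CCAAT or GGGCGG on either strand, that is ATTGG or CCGCCC on the other.
COL4A1-COL4A2: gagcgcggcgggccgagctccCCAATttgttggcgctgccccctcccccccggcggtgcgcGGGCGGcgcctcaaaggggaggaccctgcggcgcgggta
COL4A4-COL4A3: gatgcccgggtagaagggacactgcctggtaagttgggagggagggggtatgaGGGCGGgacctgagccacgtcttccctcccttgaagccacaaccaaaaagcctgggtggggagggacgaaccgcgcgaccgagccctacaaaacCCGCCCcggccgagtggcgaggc
The stretch of COL4A1 and COL4A2 holds 1 CCAAT and 1 GGGCGG, that of COL4A4 and COL4A3 holds 2 GGGCGG and no CCAAT, and the marked motifs do not overlap each other. Of 35116 RefSeq starts, 18.1% have CCAAT and 31.3% have GGGCGG in the 100 bases before them, and 25.4% and 38.3% in the 170 bases before them. In windows of 300 bases around the starts, which RefSeq's table gives for 32 of the 44 collagen genes, CCAAT was in 31.2% of the collagen windows against 34.6% of all, and GGGCGG in 56.2% against 45.0%. The RefSeq starts of COL4A4 and COL4A3 have 418 bases between them and those of COL4A6 and COL4A5 379.

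Summed expected counts per library ran from 19780836 to 55739060, and T1074 replicate 1 was the shallowest. Collagen genes took 0.189% to 0.560% of the protein-coding counts in T1074, against 0.0454% to 0.0554% in PEO-4, with SKOV-3 at 0.305% to 0.411%. PEO-4 thus lay below every library of the other lines, while T1074 and SKOV-3 overlapped. Of the 44 collagen genes, 34 passed the filter on low counts and were tested, and 33 of these differed among the lines. The background is high, since 90.4% of all genes tested differed among the lines by the same rule. The exception was COL10A1, a short-chain collagen of hypertrophic cartilage (adjusted p = 0.406).

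**Figure D1:**
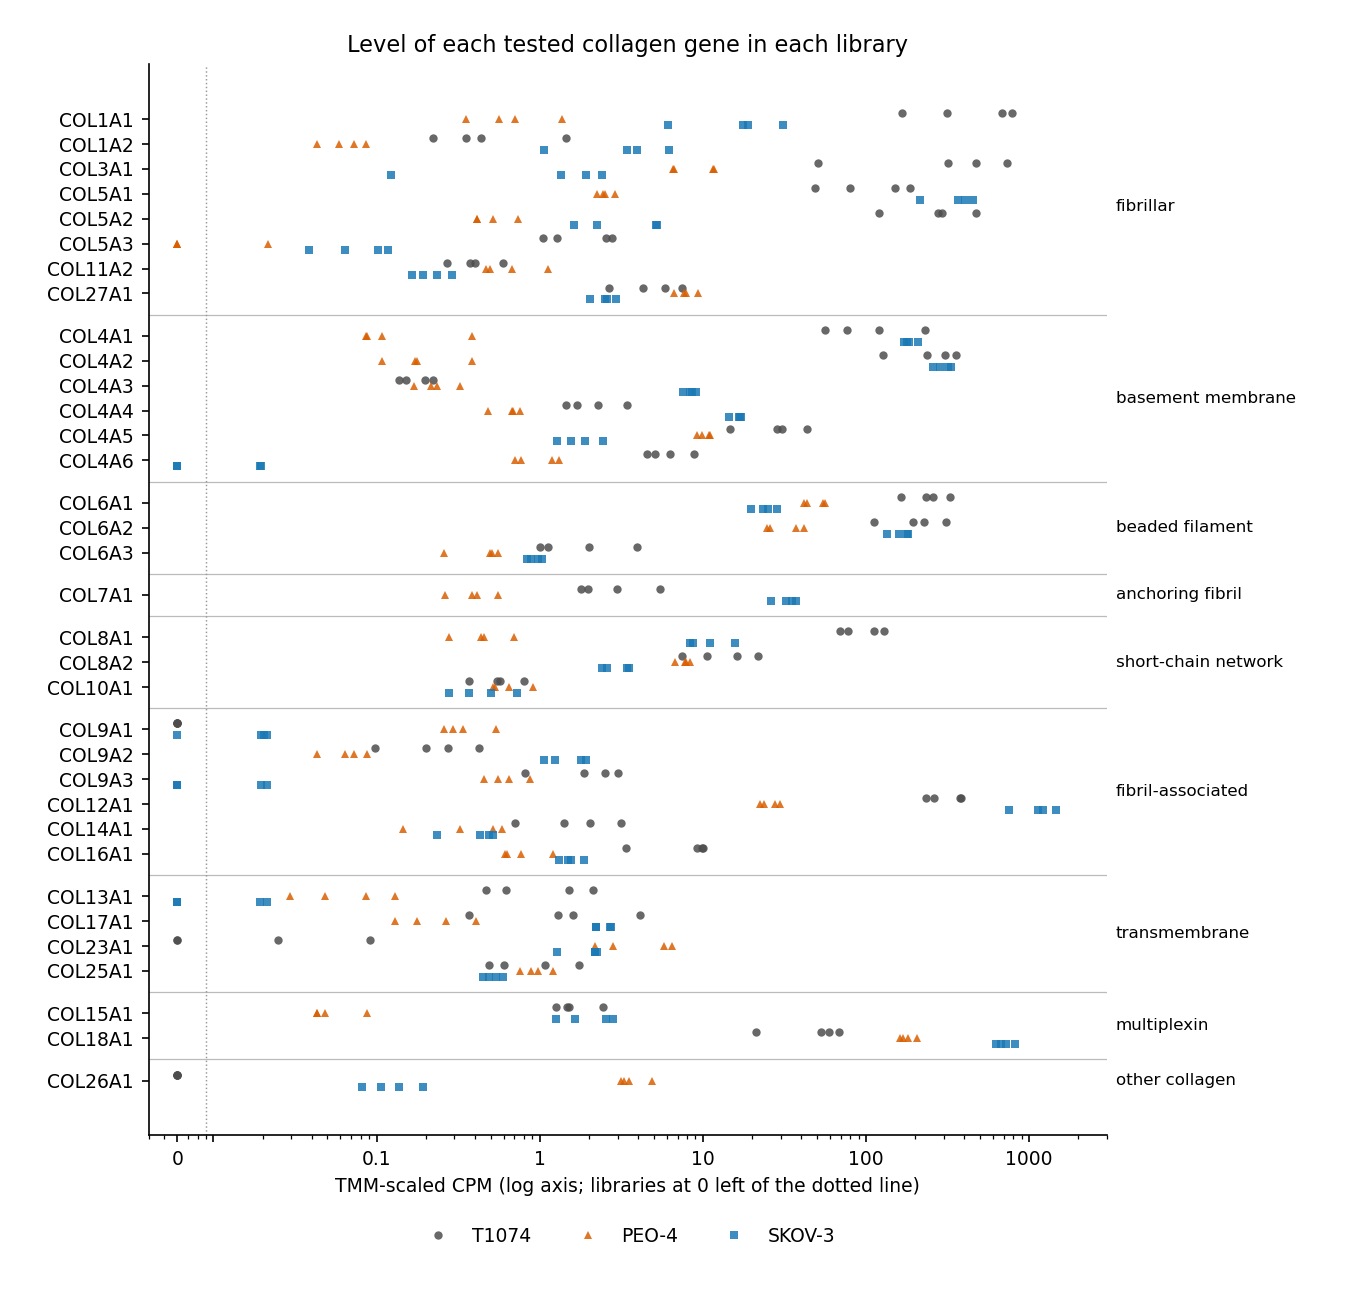
TMM-scaled CPM on a log axis for the 34 tested collagen genes, grouped by class, with 4 points per line, 1 for each library, and libraries at 0 drawn left of the dotted line. COL1A1, COL4A1, COL4A2, COL5A1 and COL5A2 lie above 40 CPM in every T1074 library and below 3 CPM in every PEO-4 library, and COL18A1 rises from T1074 through PEO-4 to SKOV-3 without overlap.

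In PEO-4 against T1074, 30 of the 34 tested collagens were called, 25 of them lower and 5 higher, where 74.1% of all genes tested were called, 37.8% lower and 36.3% higher. The median log2 fold change was -2.48 over the 34 collagens and -0.01 over all genes tested. In SKOV-3 against T1074, 27 were called, 17 lower and 10 higher, against 67.8% of all genes, 34.5% lower and 33.3% higher. There the median was -0.63 over the collagens (-0.89 with COL26A1, at 0 in T1074, set at its lower bound and COL9A1 left out) and -0.03 over all genes. In PEO-4 against SKOV-3, 32 were called, 19 lower and 13 higher in PEO-4, where 75.2% of all genes were called, 36.7% lower and 38.5% higher. The medians were -1.51 and 0.05. Both comparisons with T1074 use the same T1074 libraries. Of the collagens, 14 were lower in both cancer lines and 3 were higher in both. A further 6 were lower in PEO-4 and higher in SKOV-3, and 1 was higher in PEO-4 and lower in SKOV-3. The shares of all genes tested with the same pattern in both cancer lines were not determined. Whether these 14, 3, 6 and 1 collagens differ from that background was therefore not tested.

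**Figure D2:**
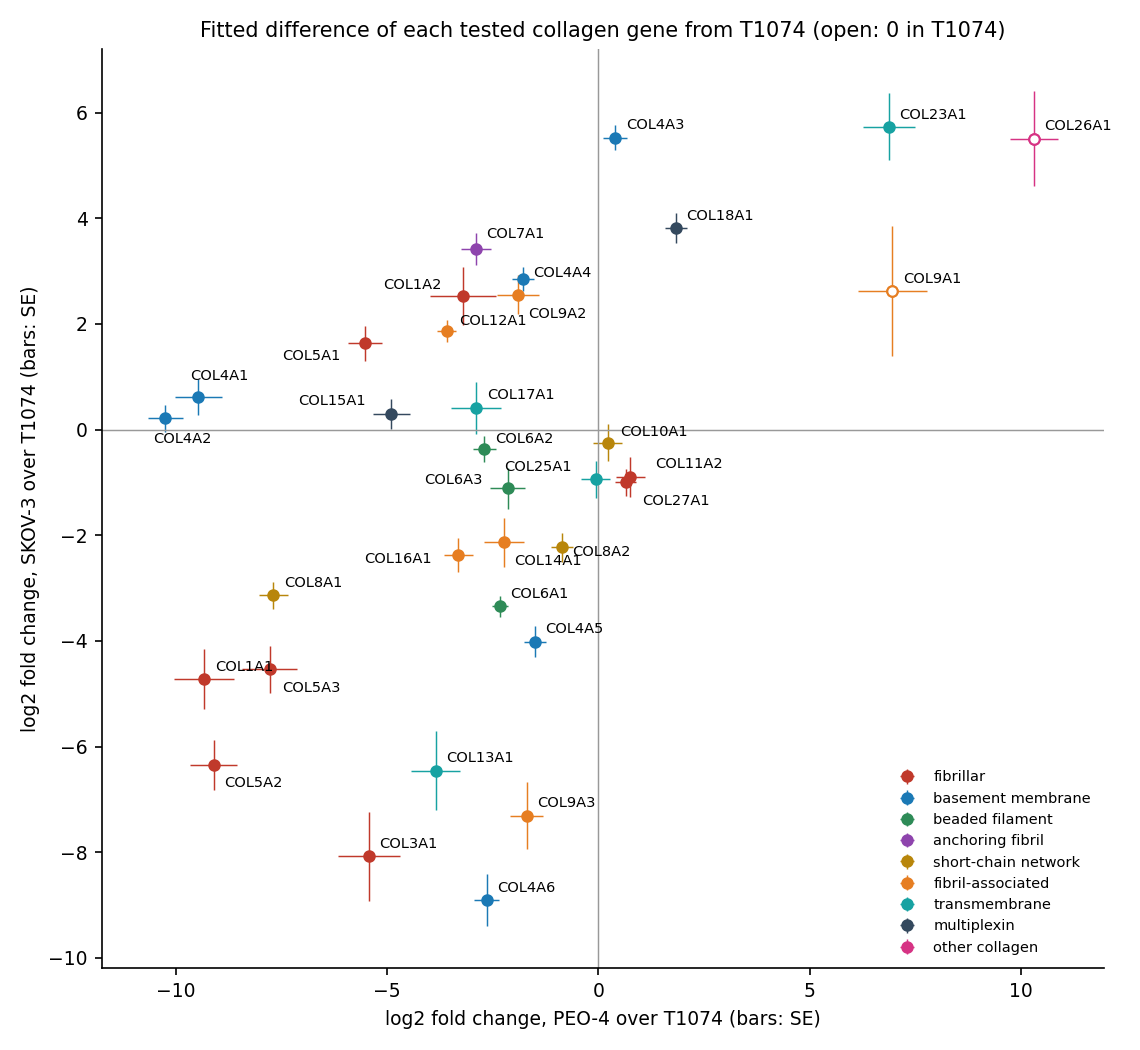
Fitted log2 fold change of the 34 tested collagen genes in PEO-4 over T1074 (x axis) and SKOV-3 over T1074 (y axis), coloured by class, with bars of 1 standard error. Open points mark COL9A1 and COL26A1, which are at 0 in T1074 and whose fitted folds depend on the prior count. The upper left quadrant holds the 6 genes called lower in PEO-4 and higher in SKOV-3. It also holds COL4A1, COL4A2, COL15A1 and COL17A1, which did not pass in SKOV-3.

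Among the fibrillar collagens, 8 of 11 genes were tested. In PEO-4, 6 were lower and 1 higher than in T1074 (median log2 fold change -5.48), while 6 were lower and 2 higher in SKOV-3 (median -2.77). The shares lower and higher over all genes tested were 37.8% and 36.3% in PEO-4, and 34.5% and 33.3% in SKOV-3. COL1A1, the major chain of type I collagen, measured 312, 679.9, 165 and 787 CPM in the 4 T1074 libraries. It was at 0.351, 1.38, 0.709 and 0.562 CPM in PEO-4 and 31.2, 18.8, 17.6 and 6.15 CPM in SKOV-3. The lines did not overlap, and mean COL1A1 was 648-fold lower in PEO-4 (log2 fold change -9.32 ± 0.71, adjusted p = 2.75e-08) and 26.4-fold lower in SKOV-3 (log2 fold change -4.72 ± 0.56, adjusted p = 3.55e-06). Its partner COL1A2, with which it forms the usual type I heterotrimer, had another order of lines. COL1A2 was at only 0.351, 0.435, 0.22 and 1.44 CPM in T1074, at 0.0586, 0.0724, 0.043 and 0.0865 CPM in PEO-4 and at 6.16, 3.42, 3.96 and 1.07 CPM in SKOV-3. COL1A2 was highest in SKOV-3 (log2 fold change 2.53 ± 0.55, adjusted p = 0.000862), where replicate 4 lay below T1074 replicate 4, and lowest in PEO-4 (log2 fold change -3.21 ± 0.78, adjusted p = 0.00193). Without T1074 replicate 4, the highest of its line, the log2 fold changes were 3.45, adjusted p = 7.09e-05 in SKOV-3 and -2.30, adjusted p = 0.0121 in PEO-4. Per length, COL1A1 exceeded COL1A2 by 901, 1305, 403 and 439 times in the T1074 libraries and by 5.98, 6.72, 5.38 and 7.91 times in SKOV-3. In PEO-4 the ratios were 44.1, 22.9, 2.84 and 13.9, on 2 to 4 COL1A2 counts per library. There the 549-base transcript COL1A1-211, on 0 to 7.65 counts per library, took a mean of 43.5% of the COL1A1 level. The 5914-base COL1A1-201 took 24.0%, so the COL1A1 side of these ratios is also limited by few counts.

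Type III collagen is a homotrimer of COL3A1 chains and mixes with type I in soft connective tissue. COL3A1 measured 317, 474, 51 and 733 CPM in T1074, with replicate 3 the lowest. PEO-4 had 11.6, 6.59, 6.68 and 11.6 CPM and SKOV-3 2.42, 1.92, 1.35 and 0.123 CPM, and the lines did not overlap. Mean COL3A1 was 43.2-fold lower in PEO-4 (log2 fold change -5.43 ± 0.73, adjusted p = 1.05e-05) and 271-fold lower in SKOV-3 (log2 fold change -8.07 ± 0.84, adjusted p = 9.75e-07). It was 1 of the 3 fibrillar genes that were higher in PEO-4 than in SKOV-3 (log2 fold change 2.64 ± 0.70, adjusted p = 0.00347), next to COL11A2 and COL27A1.

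Type V collagen regulates the start and diameter of type I fibrils, and its chains moved apart. COL5A1 measured 80.3, 149.6, 48.9 and 186 CPM in T1074, 2.25, 2.51, 2.45 and 2.88 CPM in PEO-4 and 454, 368, 403 and 214 CPM in SKOV-3. It was 46.1-fold lower in PEO-4 (log2 fold change -5.52 ± 0.41, adjusted p = 1.79e-08) and 3.1-fold higher in SKOV-3 (log2 fold change 1.63 ± 0.33, adjusted p = 0.000567), with every SKOV-3 library above every T1074 library. COL5A2 instead was lower in both cancer lines. It fell from 275, 290.2, 120.4 and 471 CPM in T1074 to 0.41, 0.41, 0.516 and 0.735 CPM in PEO-4 (log2 fold change -9.10 ± 0.56, adjusted p = 2.69e-09) and 5.17, 2.25, 5.25 and 1.62 CPM in SKOV-3 (log2 fold change -6.34 ± 0.47, adjusted p = 3.02e-08). The level of COL5A1 over that of COL5A2, per length, was 0.248, 0.431, 0.343 and 0.325 in T1074, 3.73, 5.66, 3.08 and 2.68 in PEO-4 and 50.4, 133, 61.8 and 51.3 in SKOV-3, so the more abundant chain was COL5A2 in T1074 and COL5A1 in the cancer lines. COL5A3, the least common type V chain, was at 1.05, 2.57, 1.27 and 2.76 CPM in T1074 and at 0.117, 0.0384, 0.0642 and 0.102 CPM in SKOV-3 (log2 fold change -4.54 ± 0.45, adjusted p = 6.28e-07). PEO-4 held 1 COL5A3 count in all, in replicate 3, for a pooled ratio of 345 with a 95% counting interval of 61.9 to 13612 of T1074 over PEO-4. Without that library the fitted log2 fold change went from -7.78, adjusted p = 7.69e-08 to -9.30, adjusted p = 3e-06, against a line at 0.

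COL27A1, a fibrillar chain of cartilage, was measured at 2.65 to 7.44 CPM in T1074, 6.63 to 9.31 CPM in PEO-4 and 2.03 to 2.95 CPM in SKOV-3. It was the 1 collagen higher in PEO-4 (log2 fold change 0.64 ± 0.25, adjusted p = 0.033) and lower in SKOV-3 (log2 fold change -1.0 ± 0.26, adjusted p = 0.00347), although both cancer lines overlapped T1074 and the first call was lost when T1074 replicate 2 or 3 was left out (adjusted p = 0.0873 and 0.0648) or with library size in place of TMM (adjusted p = 0.0888). The second call was lost on length-scaled counts (-0.60, adjusted p = 0.108). The cancer lines did not overlap each other (log2 fold change 1.64 ± 0.26, adjusted p = 4.63e-05). COL11A2, which also takes part in cartilage fibrils, lay between 0.164 and 1.12 CPM in all libraries. Its lower level in SKOV-3 than in T1074 (log2 fold change -0.89 ± 0.38, adjusted p = 0.0483) rested on overlapping libraries, was lost without T1074 replicate 1, 2 or 4, PEO-4 replicate 1, 2 or 4 or SKOV-3 replicate 1, 3 or 4 (adjusted p = 0.0647 to 0.183) and was 0.15, adjusted p = 0.769 on length-scaled counts. It was also lost with DESeq2 (adjusted p = 0.0827), with RLE size factors (adjusted p = 0.058) and with no filter beyond 1 count (adjusted p = 0.133). Its level in PEO-4 did not pass against T1074 (log2 fold change 0.75 ± 0.35, adjusted p = 0.0639), but passed without T1074 replicate 2 (1.0, adjusted p = 0.0275), PEO-4 replicate 1 (1.01, adjusted p = 0.0241) or PEO-4 replicate 4 (1.01, adjusted p = 0.0258). COL2A1, COL11A1 and COL24A1 did not pass the filter, with 1 to 10, 0 to 23 and 0 to 9 counts per library. COL11A1, a minor chain of cartilage fibrils, had 2 to 23 counts in the T1074 libraries and 0 or 1 in each PEO-4 and SKOV-3 library.

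Markers of fibroblasts moved in part with the fibrillar genes. Of 11 such markers, 9 were lower and 2 higher in PEO-4 than in T1074, and 7 were lower and 3 higher in SKOV-3. Their summed level was 817 to 2541 CPM in T1074, 97.1 to 124 CPM in PEO-4, where FAP was at 0 in every library, and 1199 to 2848 CPM in SKOV-3. In this list, named like the other single markers here after their values were seen, VIM, an intermediate filament gene of mesenchymal cells, had a mean of 634 CPM in T1074, against 0.125 CPM in PEO-4 and 1693 CPM in SKOV-3, and ACTA2, smooth muscle actin, at 193, 3.12 and 0.67. VIM alone made up most of the summed level in SKOV-3, so that sum does not stand for the list as a whole. The median log2 fold change of the 11 fibroblast markers against T1074 was -5.23 in PEO-4 and -2.93 in SKOV-3. Epithelial markers were also checked, because T1074 is labelled epithelial. EPCAM and CDH1 were at a mean of 0.0964 and 0.354 CPM in T1074, near 0, whereas the keratin genes KRT8 and KRT18 were at 616 and 328 CPM. Over the 10 epithelial markers the summed level was 713 to 1943 CPM in T1074, 3132 to 4468 CPM in PEO-4 and 978 to 1854 CPM in SKOV-3, where GRHL2 was at 0. The 8 mesothelial and ovarian surface markers summed to 189.8 to 346, 677 to 788 and 26.2 to 38.7 CPM in T1074, PEO-4 and SKOV-3, with 3 higher and 4 lower in PEO-4 and 1 higher and 6 lower in SKOV-3 than in T1074. By test, 8 epithelial markers were higher and none lower in PEO-4, and 7 higher and 2 lower in SKOV-3. The 5 Mullerian markers summed to 3.92 to 6.64, 705 to 812 and 157 to 192 CPM (4 higher and 1 lower in PEO-4, 4 higher in SKOV-3). The 5 endothelial markers summed to 19.2 to 45.6, 0.791 to 1.25 and 3.84 to 4.69 CPM (of 4 tested, 3 lower in PEO-4, and 1 higher and 2 lower in SKOV-3). The 5 leukocyte markers, of which PTPRC was at a mean of 0.115 CPM in T1074 and at 0 in PEO-4, summed to 7.39 to 16.8, 0.689 to 1.51 and 1.56 to 6.81 CPM, and the 1 of them tested was lower in both cancer lines. Set against these counts, 36.3% of all genes tested were higher and 37.8% lower in PEO-4 than in T1074, and 33.3% and 34.5% in SKOV-3. The 3 of 8 mesothelial and ovarian surface markers higher in PEO-4 lay near that share. The part of all these marker lists in the collagen results was not tested. In bulk samples, fewer cells of a type and less RNA per cell cannot be told apart.

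All 6 basement membrane genes were tested. In PEO-4 against T1074, 5 were lower and none was higher (median -2.21). In SKOV-3 against T1074, 2 were higher, 2 lower and 2 did not pass (median 0.42). These SKOV-3 counts lay near the shares over all genes tested, 33.3% higher and 34.5% lower. In PEO-4 those shares were 36.3% and 37.8%. COL4A1 and COL4A2, the chains of the common type IV network, were near 0 in PEO-4. By mean share of the length-normalised collagen level, COL4A1 had rank 9 in T1074 and rank 6 in SKOV-3. COL4A2 had rank 5 in T1074 and rank 3 in SKOV-3. COL4A1 measured 76.3, 119.6, 55.9 and 228 CPM in T1074, 0.0879, 0.386, 0.107 and 0.0865 CPM in PEO-4 and 182, 178, 208 and 171 CPM in SKOV-3. COL4A2 measured 237, 306, 126 and 356 CPM in T1074, 0.176, 0.386, 0.107 and 0.173 CPM in PEO-4 and 257, 285, 329.7 and 318 CPM in SKOV-3. Both genes were lower in PEO-4 than in T1074, COL4A1 719-fold (log2 fold change -9.47 ± 0.55, adjusted p = 1.69e-09) and COL4A2 1217-fold (log2 fold change -10.24 ± 0.41, adjusted p = 4.41e-11), and no library overlapped. Without PEO-4 replicate 2, the highest of its line, COL4A1 was lower still (-10.15, adjusted p = 9.38e-09). The PEO-4 libraries held 3, 16, 5 and 4 COL4A1 counts and 6, 16, 5 and 8 COL4A2 counts. SKOV-3 overlapped T1074 in both genes (log2 fold change 0.62 ± 0.34, adjusted p = 0.119 for COL4A1, log2 fold change 0.21 ± 0.25, adjusted p = 0.467 for COL4A2), although COL4A1 passed as higher without T1074 replicate 4 (1.15, adjusted p = 0.0013) and with no filter beyond 1 count (0.71, adjusted p = 0.0284). Per length, COL4A1 over COL4A2 was 0.293, 0.363, 0.45 and 0.556 in T1074 and 0.664, 0.633, 0.656 and 0.492 in SKOV-3. The pair, whose shared start region is printed above, overlaps in the annotation on opposite strands, and although the library kit was directional, whether the counting used strand is not given in the sources used here.

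COL4A3 and COL4A4 build the network of the kidney glomerulus together with COL4A5. Both were raised in SKOV-3. COL4A3 measured 0.151, 0.137, 0.221 and 0.199 CPM in T1074, 0.234, 0.169, 0.215 and 0.325 CPM in PEO-4 and 8.57, 9.02, 7.6 and 8.29 CPM in SKOV-3, 47.3-fold above T1074 (log2 fold change 5.52 ± 0.23, adjusted p = 9.44e-11). COL4A4 measured 1.46, 3.41, 1.69 and 2.29 CPM in T1074, 0.674, 0.483, 0.688 and 0.757 CPM in PEO-4 and 16.8, 17, 17 and 14.5 CPM in SKOV-3, 7.38-fold above T1074 (log2 fold change 2.86 ± 0.23, adjusted p = 5.97e-08). Thus the head-to-head neighbours were both highest in SKOV-3, while in PEO-4 COL4A4 was lower than in T1074 (log2 fold change -1.78 ± 0.25, adjusted p = 1.6e-05) and COL4A3 did not pass (log2 fold change 0.40 ± 0.29, adjusted p = 0.305). Their ratio per length, COL4A3 over COL4A4, was 1.09, 1.43, 0.83 and 1.19 in SKOV-3. It was 0.217, 0.0527, 0.647 and 0.0895 in T1074, on 3 to 9.01 COL4A3 counts per library. In PEO-4 it was 3.78, 1.74, 2.52 and 1.28, on 7 to 15.01 counts. The lncRNA gene MFF-DT lies on the opposite strand across COL4A3 and held 63.4% as many counts as COL4A3 over all libraries, which limits how surely the COL4A3 counts can be assigned if strand was not used.

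COL4A5 and COL4A6, on the X chromosome, form a network of epithelial and smooth muscle basement membranes. They showed the opposite order, with T1074 highest and SKOV-3 lowest. COL4A5 measured 28.3, 30.5, 14.7 and 43.3 CPM in T1074, 10.9, 9.87, 9.16 and 11 CPM in PEO-4 and 1.89, 2.46, 1.28 and 1.56 CPM in SKOV-3, so it was 2.85-fold lower in PEO-4 (log2 fold change -1.51 ± 0.26, adjusted p = 0.000107) and 16.2-fold lower in SKOV-3 (log2 fold change -4.02 ± 0.29, adjusted p = 2.53e-08). COL4A6 measured 5.12, 4.54, 8.87 and 6.29 CPM in T1074, 1.32, 0.772, 0.709 and 1.19 CPM in PEO-4 and 0.0195, 0.0192, 0 and 0 CPM in SKOV-3. SKOV-3 held 2 COL4A6 counts in all, for a pooled ratio of 629 with a 95% counting interval of 174 to 5195 of T1074 over SKOV-3. COL4A6 was also 6.22-fold lower in PEO-4 than in T1074 (log2 fold change -2.64 ± 0.29, adjusted p = 1.19e-06). In PEO-4, COL4A5 was the most abundant type IV chain by length-normalised level, with 3.61% ± 1.08 of collagen RNA, against 8.87% ± 0.61 for COL4A2 in T1074 and 11.5% ± 2.16 for COL4A2 in SKOV-3.

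**Figure D3:**
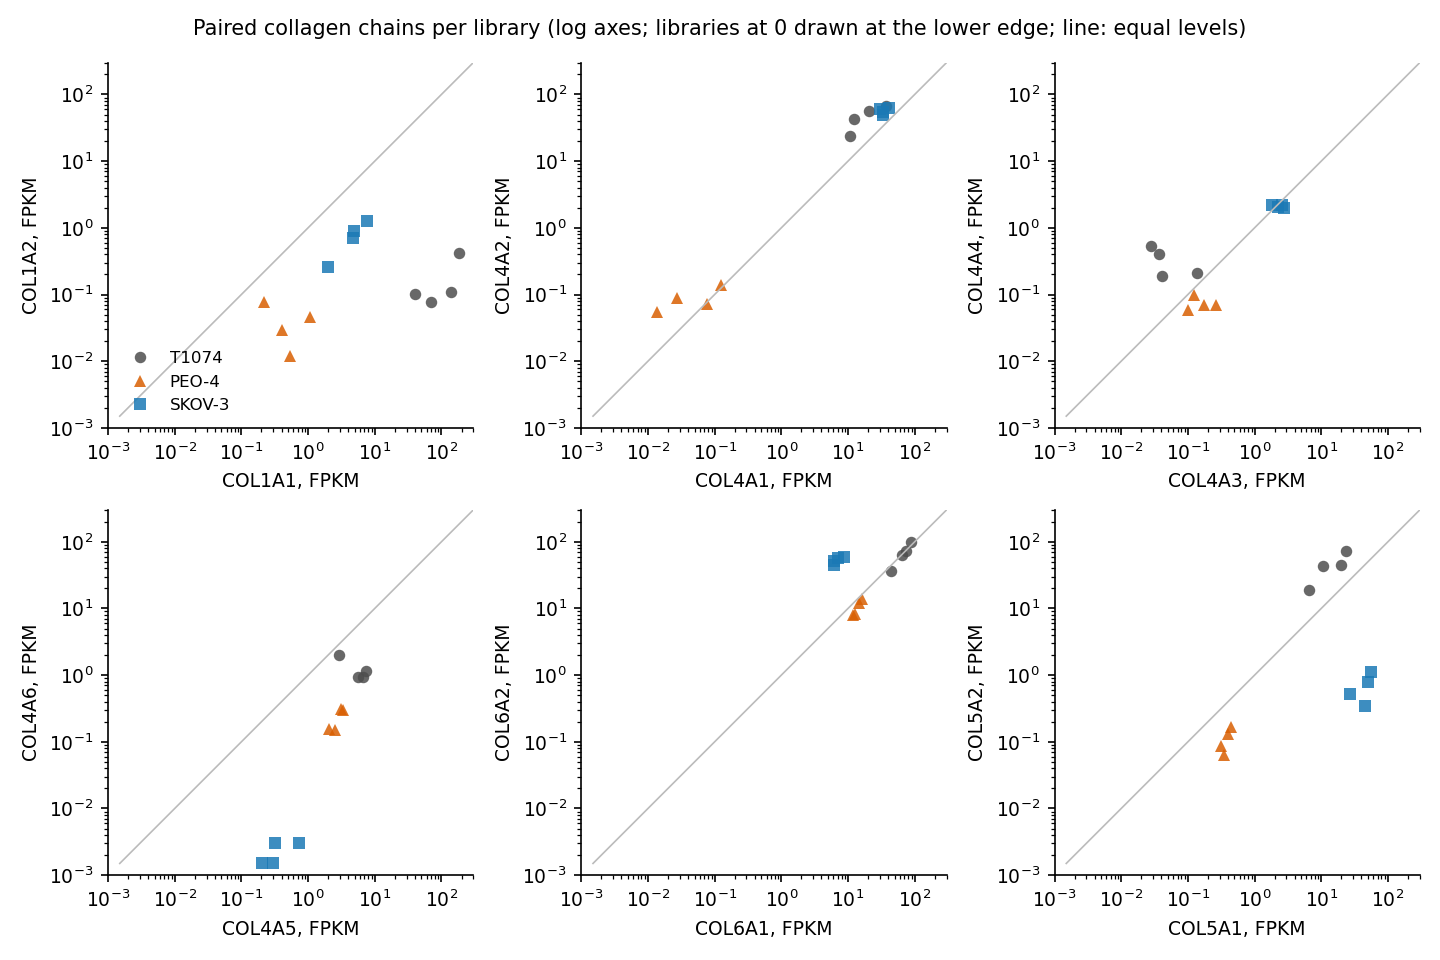
FPKM of paired collagen chains in each of the 12 libraries on log axes, with the line of equal levels and libraries at 0 drawn at the lower edge. COL4A1 and COL4A2, and COL4A3 and COL4A4, sit near the line in SKOV-3, whereas COL1A1 lies far from COL1A2 in T1074 and COL6A1 lies far below COL6A2 in SKOV-3.

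Type VI collagen forms beaded filaments near cells and needs COL6A1, COL6A2 and another chain, most often COL6A3. COL6A1 measured 257, 234, 163 and 329 CPM in T1074, 43.3, 54.9, 56.2 and 42 CPM in PEO-4 and 23.4, 28.5, 19.8 and 25 CPM in SKOV-3, without overlap. It was 5.01-fold lower in PEO-4 (log2 fold change -2.32 ± 0.19, adjusted p = 6.6e-08) and 10.2-fold lower in SKOV-3 (log2 fold change -3.35 ± 0.20, adjusted p = 3.4e-09). COL6A2, its neighbour on chromosome 21, measured 225, 194, 111 and 309 CPM in T1074, 25.7, 37.1, 41.5 and 24.8 CPM in PEO-4 and 159.8, 180.2, 135 and 177 CPM in SKOV-3. It was lower in PEO-4 (log2 fold change -2.70 ± 0.27, adjusted p = 3.97e-07) but overlapped T1074 in SKOV-3 (log2 fold change -0.36 ± 0.25, adjusted p = 0.21), where it passed only without T1074 replicate 3 among the libraries left out (-0.56, adjusted p = 0.0218). Per length, COL6A1 over COL6A2 was 1.04, 1.03, 1.24 and 0.901 in T1074, 1.53, 1.22, 1.19 and 1.49 in PEO-4 and 0.119, 0.147, 0.139 and 0.124 in SKOV-3, so the chains were near equal in T1074, and COL6A2 led in every SKOV-3 library. COL6A3 was low in all lines, at 1 to 3.93, 0.26 to 0.559 and 0.838 to 1.03 CPM in T1074, PEO-4 and SKOV-3, and COL6A1 exceeded it 132, 159.9, 89 and 151 times per length in the T1074 libraries. Its lower level in SKOV-3 than in T1074 (log2 fold change -1.11 ± 0.38, adjusted p = 0.0195) was lost without T1074 replicate 4 (-0.51, adjusted p = 0.149), and that in PEO-4 (log2 fold change -2.14 ± 0.41, adjusted p = 0.000297) was then -1.55, adjusted p = 0.000633. The alternative chains COL6A5 and COL6A6 did not pass the filter, with 0 to 8 and 1 to 6 counts per library.

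COL7A1, the chain of the anchoring fibrils that fasten epithelia to the tissue below, was highest in SKOV-3. It measured 2.96, 1.79, 5.49 and 1.96 CPM in T1074, 0.264, 0.555, 0.387 and 0.411 CPM in PEO-4 and 37.3, 35.3, 32.5 and 26.1 CPM in SKOV-3, without overlap. COL7A1 was 10.8-fold higher in SKOV-3 (log2 fold change 3.42 ± 0.30, adjusted p = 1.75e-07) and 7.55-fold lower in PEO-4 (log2 fold change -2.89 ± 0.36, adjusted p = 4.78e-06) than in T1074. Among the short-chain network genes, COL8A1 of subendothelial and corneal matrix was highest in T1074. COL8A1 measured 77.9, 69.1, 128 and 111 CPM in T1074, 0.439, 0.7, 0.279 and 0.454 CPM in PEO-4 and 15.8, 11, 8.69 and 8.32 CPM in SKOV-3, 207-fold (log2 fold change -7.69 ± 0.34, adjusted p = 9.89e-11) and 8.82-fold (log2 fold change -3.14 ± 0.26, adjusted p = 7.4e-08) below T1074. COL8A2, its partner, was at 6.79 to 8.3 CPM in PEO-4 against 7.47 to 21.7 CPM in T1074 (log2 fold change -0.87 ± 0.26, adjusted p = 0.00789, with overlapping libraries) and 2.42 to 3.51 CPM in SKOV-3 (log2 fold change -2.23 ± 0.27, adjusted p = 5.05e-06). Per length, COL8A1 over COL8A2 was 8.6, 4.8, 16.7 and 5.81 in T1074 and 0.0465, 0.27, 0.0501 and 0.0786 in PEO-4, so the major chain was COL8A1 in T1074 and COL8A2 in PEO-4. COL10A1 lay between 0.278 and 0.908 CPM in all libraries and passed in no comparison (0.22, adjusted p = 0.571 in PEO-4 and -0.25, adjusted p = 0.539 in SKOV-3 as log2 fold changes against T1074), and the gene NT5DC1 on the other strand of its locus held 23512 counts over all libraries against 282 for COL10A1.

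The fibril-associated collagens decorate fibrils and link them to other matrix. Of 10 genes 6 were tested, 5 of them lower and 1 higher in PEO-4, and 3 lower and 2 higher in SKOV-3, than in T1074. By the same tests 37.8% of all genes were lower and 36.3% higher in PEO-4, and 34.5% and 33.3% in SKOV-3. The higher count in SKOV-3 lay near that share. COL12A1, which bridges fibrils, led this class in all 3 lines. It measured 259.7, 382, 232 and 374 CPM in T1074, 27.6, 23.9, 22.3 and 29.7 CPM in PEO-4 and 1130.0, 1452, 1211 and 748 CPM in SKOV-3, 12.1-fold below T1074 in PEO-4 (log2 fold change -3.59 ± 0.23, adjusted p = 3.63e-09) and 3.64-fold above it in SKOV-3 (log2 fold change 1.86 ± 0.21, adjusted p = 2.2e-06). COL16A1 was at 3.39 to 10.1 CPM in T1074, 0.615 to 1.2 CPM in PEO-4 and 1.31 to 1.86 CPM in SKOV-3, and lower in both cancer lines (-3.32, adjusted p = 6.04e-07 and -2.38, adjusted p = 1.21e-05 on the log2 scale). COL14A1, a relative of COL12A1, was at 0.71 to 3.16, 0.145 to 0.586 and 0.234 to 0.519 CPM in T1074, PEO-4 and SKOV-3 and also lower in both (log2 fold changes -2.24, adjusted p = 0.000605, and -2.13, adjusted p = 0.000852).

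The chains of type IX collagen, a cartilage collagen, were each highest in another line. COL9A1 was at 0 in every T1074 library, at 0.293, 0.338, 0.537 and 0.26 CPM in PEO-4 and at 0.0195, 0, 0.0214 and 0.0205 CPM in SKOV-3. Against a floor of 3 counts per T1074 library it was at least 3.89-fold higher in PEO-4 (adjusted p = 1.16e-05), and SKOV-3 held 3 counts in all. COL9A2 was instead highest in SKOV-3, at 1.07 to 1.91 CPM against 0.098 to 0.423 CPM in T1074 (log2 fold change 2.55 ± 0.36, adjusted p = 2.18e-05) and 0.0433 to 0.0879 CPM in PEO-4 (log2 fold change -1.90 ± 0.50, adjusted p = 0.00327). COL9A3 was highest in T1074, at 0.808 to 3.01 CPM against 0.454 to 0.869 CPM in PEO-4 (log2 fold change -1.70 ± 0.38, adjusted p = 0.00104) and 0 to 0.0214 CPM in SKOV-3, where 2 counts in all gave a pooled ratio of 207 with a 95% counting interval of 57.3 to 1709 of T1074 over SKOV-3. For COL9A3 the libraries of T1074 and PEO-4 overlapped, and the PEO-4 call was lost on length-scaled counts (adjusted p = 0.0861). The gene TCFL5 overlaps COL9A3 on the other strand and held 15088 counts over all libraries against 409 for COL9A3. COL19A1, COL20A1, COL21A1 and COL22A1 were not tested, with at most 4, 3, 5 and 1 counts in a library.

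Transmembrane collagens lie at the cell surface and can be shed. COL23A1, the type XXIII chain, was at 0, 0.0916, 0 and 0.0249 CPM in T1074, on 4 counts in replicate 2 and 1 in replicate 4. It was at 2.17, 5.81, 6.47 and 2.81 CPM in PEO-4 and 2.24, 2.17, 2.18 and 1.27 CPM in SKOV-3, and higher in both than in T1074 (log2 fold change 6.86 ± 0.62, adjusted p = 1.5e-07 in PEO-4, log2 fold change 5.73 ± 0.63, adjusted p = 1.81e-06 in SKOV-3). The fold depends on those 5 counts, and without T1074 replicate 2 the log2 fold changes were 8.39, adjusted p = 5.83e-07 and 7.26, adjusted p = 4.96e-06. COL17A1, a component of the hemidesmosomes by which epithelial cells grip the basement membrane, was at 1.61, 0.367, 4.14 and 1.29 CPM in T1074, with replicate 3 the highest. PEO-4 had 0.176, 0.265, 0.408 and 0.13 CPM (log2 fold change -2.89 ± 0.59, adjusted p = 0.000461) and SKOV-3 2.71, 2.23, 2.23 and 2.73 CPM (log2 fold change 0.41 ± 0.49, adjusted p = 0.469), and without T1074 replicate 3 SKOV-3 passed as higher (1.26, adjusted p = 0.0137), while PEO-4 was at -2.06, adjusted p = 0.00127. COL13A1, which acts at the neuromuscular junction, was at 0.465 to 2.11 CPM in T1074, 0.0293 to 0.129 CPM in PEO-4 (log2 fold change -3.85 ± 0.58, adjusted p = 3.03e-05) and 0 to 0.0214 CPM in SKOV-3, which held 2 counts (a pooled ratio of 102 with a 95% counting interval of 28.4 to 846 of T1074 over SKOV-3). COL25A1, a brain collagen, was at 0.49 to 1.74, 0.752 to 1.21 and 0.45 to 0.594 CPM in T1074, PEO-4 and SKOV-3, with -0.06, adjusted p = 0.877 in PEO-4 on the log2 scale and a lower level in SKOV-3 (log2 fold change -0.94 ± 0.35, adjusted p = 0.0289) that was lost without T1074 replicate 2 or 4 or SKOV-3 replicate 1, 2 or 3 (adjusted p = 0.0542 to 0.177).

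The multiplexins are proteoglycans of basement membranes. COL18A1 had the highest mean length-normalised level of the collagen chains in both cancer lines and was higher in each than in T1074. It measured 52.8, 59.3, 21.3 and 68.4 CPM in T1074, 161, 206, 182 and 169 CPM in PEO-4 and 719, 671, 814 and 627 CPM in SKOV-3, so no lines overlapped. The rise was 3.55-fold in PEO-4 (log2 fold change 1.83 ± 0.26, adjusted p = 1.72e-05) and 14-fold in SKOV-3 (log2 fold change 3.81 ± 0.28, adjusted p = 2.74e-08), and the cancer lines differed from each other (log2 fold change -1.98 ± 0.26, adjusted p = 7.75e-06). The gene SLC19A1 overlaps COL18A1 on the other strand and held 17192 counts over all libraries. COL18A1 held 177997 counts over all libraries but only 7260 in T1074. If strand was not used in counting, this limits the T1074 level of COL18A1 and the folds against it. COL15A1, the other multiplexin, was at 1.25 to 2.43 CPM in T1074 and 1.27 to 2.83 CPM in SKOV-3 (log2 fold change 0.30 ± 0.29, adjusted p = 0.365) but at 0.043 to 0.0879 CPM in PEO-4 (log2 fold change -4.90 ± 0.43, adjusted p = 1.1e-07). COL26A1, of the class of other collagens, was at 0 in every T1074 library, at 3.28, 4.9, 3.14 and 3.5 CPM in PEO-4 and at 0.136, 0.192, 0.107 and 0.082 CPM in SKOV-3. It was at least 40.3-fold higher in PEO-4 (adjusted p = 1.65e-08) and at least 1.41-fold higher in SKOV-3 (adjusted p = 0.000205), against the floor of 3 counts per library, and 28.6-fold higher in PEO-4 than in SKOV-3 (log2 fold change 4.8 ± 0.32, adjusted p = 7.09e-08). COL28A1 had 0 to 3 counts per library and was not tested.

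The cancer lines were also compared with each other in the same fit. Of the 8 fibrillar genes tested, 5 were lower and 3 higher in PEO-4 than in SKOV-3 (median log2 fold change -3.00). Of the 6 basement membrane genes, 4 were lower and 2 higher (median -4.88). In this comparison 36.7% of all genes tested were lower and 38.5% higher in PEO-4, so the higher counts of both classes lay near that share. COL4A1 and COL4A2 had the lowest values (log2 fold change -10.09 ± 0.56, adjusted p = 1.04e-09 for COL4A1, log2 fold change -10.46 ± 0.42, adjusted p = 3.8e-11 for COL4A2), followed by COL5A1 (log2 fold change -7.15 ± 0.43, adjusted p = 2.52e-09), COL7A1 (log2 fold change -6.32 ± 0.37, adjusted p = 1.65e-09) and COL1A2 (log2 fold change -5.74 ± 0.72, adjusted p = 4.71e-06), and in none of these genes did the lines overlap. COL12A1 (log2 fold change -5.46 ± 0.25, adjusted p = 1.33e-10), COL15A1 (log2 fold change -5.20 ± 0.42, adjusted p = 5.07e-08) and COL4A3 (log2 fold change -5.13 ± 0.22, adjusted p = 8.18e-11) were lower as well. Higher in PEO-4 were COL4A5 (log2 fold change 2.50 ± 0.28, adjusted p = 1.64e-06), COL6A1 (log2 fold change 1.02 ± 0.19, adjusted p = 0.000184), COL8A2 (log2 fold change 1.36 ± 0.27, adjusted p = 0.000351) and COL23A1 (log2 fold change 1.14 ± 0.37, adjusted p = 0.0123). For COL23A1 the lines overlapped, with PEO-4 replicate 1 at 2.17 CPM and SKOV-3 replicate 1 at 2.24 CPM. For genes with 1 to 3 counts in a line, the pooled ratio of PEO-4 over SKOV-3 was 97.4 for COL4A6 (95% counting interval 27 to 805), 62.6 for COL9A3 (17.3 to 517) and 24 for COL9A1 (8.22 to 116). For COL5A3, with 1 count in PEO-4, it was 13.5 as SKOV-3 over PEO-4 (2.43 to 535). Without PEO-4 replicate 3 the fitted COL5A3 log2 fold change went from -3.24, adjusted p = 0.0071 to -4.82, adjusted p = 0.00765, and without PEO-4 replicate 2 that of COL4A1 went to -10.84, adjusted p = 6.03e-09.

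Calls of 4 genes between the cancer lines were lost on leaving out single libraries or under other settings. The call of COL6A3 (-1.03, adjusted p = 0.0362, as log2 fold change) was lost on leaving out any 1 PEO-4 library or SKOV-3 replicate 2, 3 or 4 (adjusted p = 0.0529 to 0.132), with a filter at a mean of 1 CPM (adjusted p = 0.052) and on protein-coding genes alone (adjusted p = 0.0703). That of COL16A1 (-0.94, adjusted p = 0.0203) was lost without PEO-4 replicate 1, 2 or 4 or SKOV-3 replicate 4 (adjusted p = 0.052 to 0.0821). That of COL25A1 (0.88, adjusted p = 0.0349) was lost without PEO-4 replicate 2 or SKOV-3 replicate 1, 2 or 3 (adjusted p = 0.0625 to 0.0827). COL13A1, at a pooled ratio of 7.68 of PEO-4 over SKOV-3 with a counting interval of 2.13 to 63.4 (adjusted p = 0.0349), lost its call without PEO-4 replicate 3 or 4 or SKOV-3 replicate 1 or 4 (adjusted p = 0.059 to 0.102).

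COL18A1 also changed its leading transcript between the lines. COL18A1-207 starts at chromosome 21 position 45405165 and COL18A1-202 at position 45455522, 50357 bases downstream, so the 2 transcripts begin with different first exons. COL18A1-207 made up 95.6, 80.7, 85 and 84.2% of the COL18A1 level in the T1074 libraries and 89.4, 90.8, 86.2 and 89.2% in SKOV-3, but 33.2, 37.1, 33.7 and 34% in PEO-4. COL18A1-202 made up 55.6, 50.2, 53.7 and 53.8% in PEO-4, 0.884, 1.51, 0.672 and 1.1% in T1074 and 0.215, 0.177, 0.367 and 0.116% in SKOV-3. The lines were thus far apart, on 3381 to 5061 COL18A1-202 counts in a PEO-4 library and 29345 to 36484 COL18A1-207 counts in a SKOV-3 library. These shares are RSEM estimates and were not tested. The 120 bases before each start are printed to show where each transcript begins, with GGGCGG on either strand in capitals as above.
COL18A1-207: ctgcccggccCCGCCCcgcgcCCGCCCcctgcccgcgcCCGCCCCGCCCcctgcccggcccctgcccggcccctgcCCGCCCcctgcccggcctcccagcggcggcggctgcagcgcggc
COL18A1-202: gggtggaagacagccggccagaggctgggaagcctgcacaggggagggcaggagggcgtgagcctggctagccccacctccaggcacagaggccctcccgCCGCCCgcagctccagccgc
The stretch before COL18A1-207 is at chr21:45405045-45405164 and that before COL18A1-202 at chr21:45455402-45455521, both on the plus strand of GRCh38. The first holds 5 matches of GGGCGG, of which a pair overlaps by 1 base, and 91.7% G or C, and the second holds 1 match and 74.2% G or C. Of all RefSeq starts, 34.0% have GGGCGG in the 120 bases before them. Of the 15 collagen genes with a mean of at least 10 CPM in a line, 10 reached it in more than 1 line, and the leading transcript differed between lines in 2 of these, COL18A1 and COL4A5. The share of all genes with such a difference was not determined. In COL4A5 the lines did not overlap for COL4A5-201, at 35.0% to 47.8% of the level in T1074 and 17.1% to 28.6% in PEO-4. They overlapped for COL4A5-202, at 28.4% to 44.5% in T1074 and 25.4% to 48.4% in PEO-4. Within each line the ranges of COL4A5-201 and COL4A5-202 overlapped, so the leading COL4A5 transcript was not settled in either line. COL4A5-201 took 43.0% ± 5.61 of the level in T1074 and 22.3% ± 5.17 in PEO-4, and COL4A5-202 took 34.8% ± 6.87 and 33.3% ± 10.3.

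**Figure D4:**
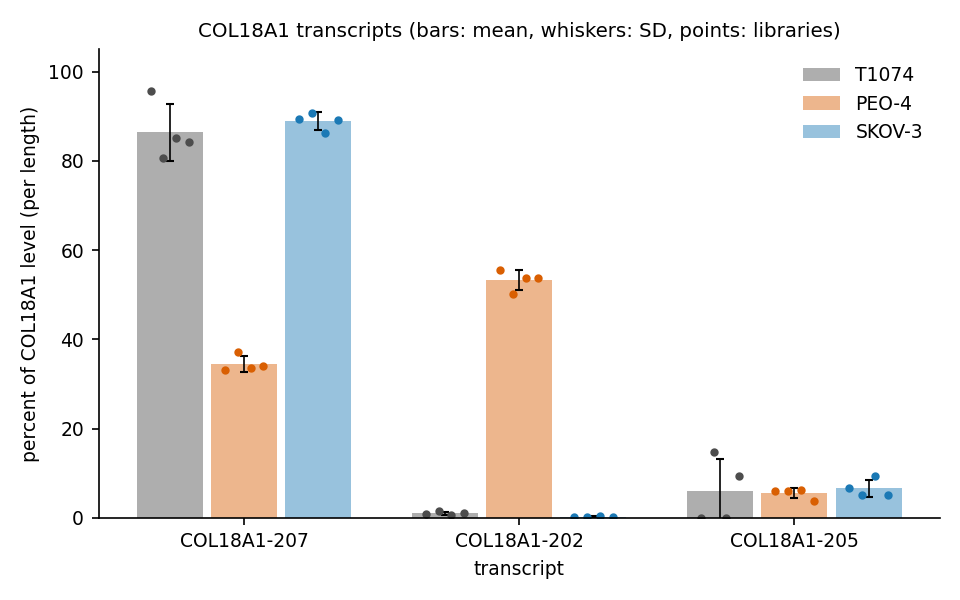
Percent of the length-normalised COL18A1 level taken by its 3 leading transcripts by line, as bars (mean), whiskers (SD) and points (4 libraries each). COL18A1-202 takes more than 50% in every PEO-4 library and less than 2% in every library of the other lines.

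The composition of collagen RNA, that is the share of the summed length-normalised collagen level, is described without a test. Fibrillar genes made up 42.6% ± 10.7 of it in T1074, against 6.15% ± 1.24 in PEO-4, with SKOV-3 at 10.2% ± 2.41, and every T1074 library was above every library of the cancer lines. Basement membrane genes made up 14% ± 0.616, 4.42% ± 1.23 and 19.5% ± 2.63, with no overlap between the lines. Beaded filament genes took 26.3% ± 4.93, 31.2% ± 3.59 and 12.3% ± 2.62. In the cancer lines other classes had the highest means. Multiplexin genes took 45.2% ± 1.99 in PEO-4 and 29.7% ± 2.76 in SKOV-3 against 2.05% ± 0.274 in T1074, and fibril-associated genes took 26.4% ± 4.33 in SKOV-3 against 8.26% ± 2.35 in T1074 and 5.48% ± 1.07 in PEO-4. Without length correction, fibril-associated genes held 37.7% and multiplexin genes 24.0% in SKOV-3, the reverse order, and fibril-associated genes moved to 13.4% in T1074 and 8.34% in PEO-4 and beaded filament genes to 6.45% in SKOV-3.

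By chain, T1074 was led by COL1A1 (18.9% ± 4.56), COL6A1 (13.4% ± 3.06), COL6A2 (12.7% ± 2.04) and COL3A1 (12.6% ± 6.11), whose shares overlapped between libraries. PEO-4 was led by COL18A1 (45.2% ± 1.99), COL6A1 (17.7% ± 1.3), COL6A2 (13.3% ± 2.42) and COL4A5 (3.61% ± 1.08). COL12A1 came next in PEO-4 (3.56% ± 1.21), and its share overlapped that of COL4A5. Without division by length COL12A1 was above COL4A5 in PEO-4, at means of 25.9 and 10.2 CPM. The short transcripts COL4A5-203 and COL4A5-208 took means of 18.7% and 15.2% of the COL4A5 level there. SKOV-3 was led by COL18A1 (29.6% ± 2.77), COL12A1 (26% ± 4.39), COL4A2 (11.5% ± 2.16) and COL6A2 (10.8% ± 2.33), with COL5A1 next (8.75% ± 1.87). The shares of COL18A1 and COL12A1 overlapped in SKOV-3, where COL12A1 was above COL18A1 in replicate 2. The 4 leading chains of a line held 57.6% of the collagen level in T1074, with PEO-4 at 79.8% and SKOV-3 at 77.9%. The summed collagen level was 469, 596, 273 and 829 FPKM in the T1074 libraries, 70.4, 85.5, 83.5 and 71.4 FPKM in PEO-4 and 511, 530.4, 539.6 and 419 FPKM in SKOV-3. The total was lowest in PEO-4 and overlapped between T1074 and SKOV-3. Short fragment transcripts of some genes raise their length-normalised levels, which limits these shares.

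**Figure D5:**
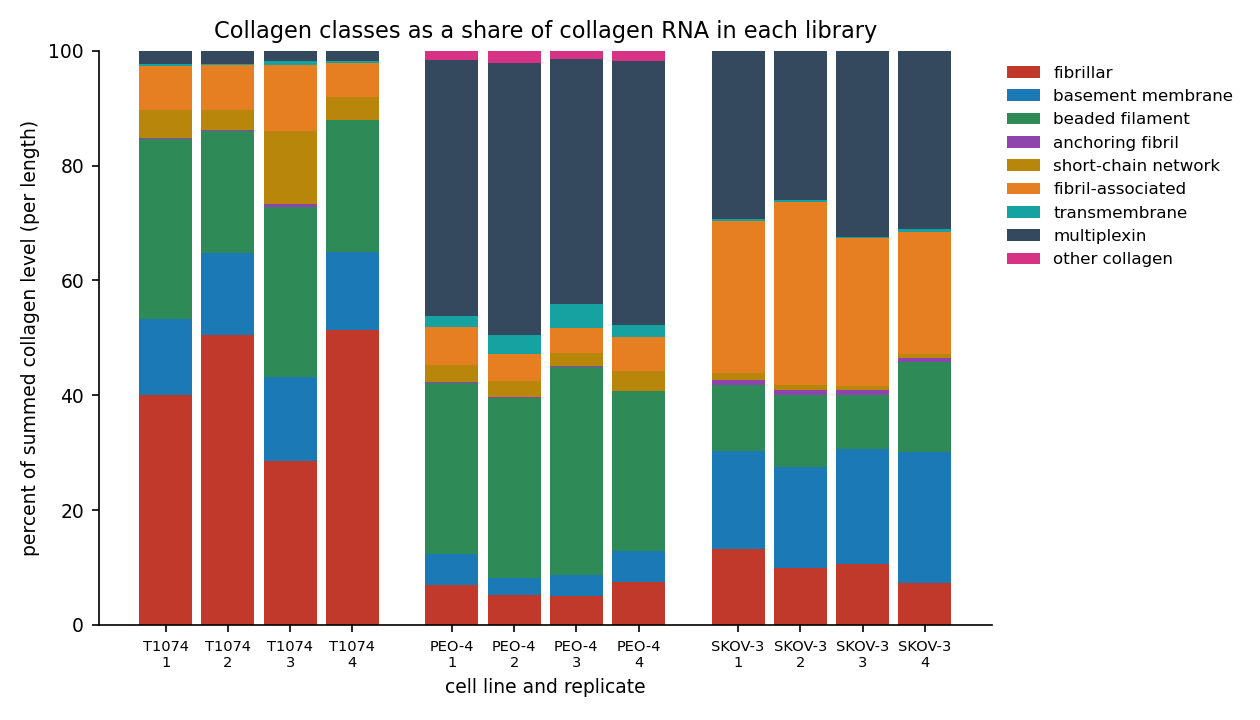
Share of the summed length-normalised collagen level (percent, y axis) taken by each of the 9 classes in each of the 12 libraries (bars, x axis). Fibrillar genes take 28.5% to 51.3% in the T1074 libraries and 5.05% to 13.1% in the libraries of the cancer lines, where multiplexin genes take 26.1% to 47.4%.

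Collagen chains are hydroxylated and folded in the endoplasmic reticulum before they leave the cell, and 19 genes of this step were tested. All counts that follow for such genes are against T1074, where 36.3% of all genes tested were higher and 37.8% lower in PEO-4, and 33.3% higher and 34.5% lower in SKOV-3. PEO-4 had 4 higher, 13 lower and 2 that did not pass, of 19 tested (median log2 fold change -1.48, against -0.01 over all genes tested). SKOV-3 had 3 higher, 10 lower and 6 that did not pass, of 19 tested (median -0.90). P4HB, a subunit of prolyl 4-hydroxylase, was higher in both cancer lines, at 359 to 661 CPM in T1074, 717 to 854 CPM in PEO-4 (log2 fold change 0.73, adjusted p = 0.000932) and 656 to 773 CPM in SKOV-3 (0.61, adjusted p = 0.00409). SERPINH1, the collagen chaperone HSP47, was lower in both, at 272 to 483, 247 to 308 and 176 to 207 CPM (log2 fold changes -0.55, adjusted p = 0.00408, and -1.0, adjusted p = 3.61e-05). CRTAP, of the prolyl 3-hydroxylation complex, was higher in PEO-4 (0.72, adjusted p = 0.000467) and did not pass in SKOV-3 (0.12, adjusted p = 0.478), and PPIB, a prolyl isomerase of the same complex, passed in neither (-0.24, adjusted p = 0.194 and 0.29, adjusted p = 0.136).

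Of the genes for export and propeptide removal, 13 of 15 were tested. PEO-4 had 5 higher, 7 lower and 1 that did not pass, of 13 tested, and SKOV-3 had 3 higher, 6 lower and 4 that did not pass, of 13 tested. Over all genes tested 36.3% were higher and 37.8% lower in PEO-4, and 33.3% and 34.5% in SKOV-3, so the count of higher members in PEO-4 lay near the background. BMP1, the protease that removes C-propeptides of fibrillar collagens, was at 70.5 to 109.5 CPM in T1074, 12.8 to 16.9 CPM in PEO-4 (log2 fold change -2.56, adjusted p = 5.63e-09) and 53.5 to 83 CPM in SKOV-3 (-0.29, adjusted p = 0.114). SEC23A, a COPII coat gene, was lower in both cancer lines (-1.87, adjusted p = 6.84e-09 and -0.45, adjusted p = 0.00424), MIA2, which helps load large cargo, was higher in both (0.90, adjusted p = 0.000266 and 1.45, adjusted p = 3.73e-06), and FURIN, a proprotein convertase, was lower in PEO-4 alone among the comparisons with T1074 (-0.83, adjusted p = 9.88e-05 and 0.21, adjusted p = 0.194).

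Cross-linking enzymes join collagen chains after secretion. PEO-4 had 1 higher, 5 lower and 1 that did not pass, of 7 tested. SKOV-3 had 1 higher, 3 lower and 3 that did not pass, of 7 tested. Over all genes tested 36.3% were higher and 37.8% lower in PEO-4, and 33.3% and 34.5% in SKOV-3. The lower count in SKOV-3 lay near that share. LOX, lysyl oxidase, was at 69.3 to 255 CPM in T1074, 3.87 to 5.81 CPM in PEO-4 (log2 fold change -4.98, adjusted p = 6.51e-09) and 208 to 286 CPM in SKOV-3 (0.62, adjusted p = 0.06). LOXL2, which acts on type IV collagen, was at 286 to 924, 1.23 to 3.09 and 128 to 189 CPM, lower in both cancer lines (-7.92, adjusted p = 4.7e-10 and -1.81, adjusted p = 0.000107) and least in PEO-4. PXDN, the peroxidase that makes sulfilimine bonds in type IV collagen, was also lower in both (-0.94, adjusted p = 0.000387 and -0.56, adjusted p = 0.0164), and TGM2, a transglutaminase, was higher in SKOV-3 (2.24, adjusted p = 8.76e-05) and did not pass in PEO-4 (-0.26, adjusted p = 0.524).

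Of the collagen receptors and uptake genes, 8 of 10 were tested. PEO-4 had 2 higher, 5 lower and 1 that did not pass, of 8 tested. SKOV-3 had 1 higher, 5 lower and 2 that did not pass, of 8 tested. Of all genes tested, 74.1% were called in PEO-4 (37.8% lower) and 67.8% in SKOV-3 (34.5% lower). The discoidin domain receptors, which are kinases activated by collagen, went opposite ways in PEO-4. DDR1 was at 69.1 to 97.3 CPM in T1074, 297 to 362 CPM in PEO-4 (log2 fold change 1.87, adjusted p = 3.52e-09) and 44.2 to 49.5 CPM in SKOV-3 (-0.85, adjusted p = 1.38e-05), and DDR2 was at 309 to 527, 6.28 to 21.5 and 47.5 to 65.2 CPM (-4.75, adjusted p = 1.27e-08 and -2.88, adjusted p = 1.28e-06). ITGB1, the beta chain of the collagen-binding integrins, was lower in PEO-4 (-2.54, adjusted p = 2.82e-07) and did not pass in SKOV-3 (-0.51, adjusted p = 0.0637). MRC2, which takes up collagen fragments, was lower in PEO-4 (-1.05, adjusted p = 0.0045) and higher in SKOV-3 (0.91, adjusted p = 0.0116).

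Proteins that organize fibrils were tested with 11 of 14 genes. PEO-4 had 1 higher, 9 lower and 1 that did not pass, of 11 tested. SKOV-3 had 2 higher, 8 lower and 1 that did not pass, of 11 tested. The shares lower over all genes tested were 37.8% in PEO-4 and 34.5% in SKOV-3. FN1, fibronectin, was low in PEO-4 and did not pass in SKOV-3, at 781 to 1833 CPM in T1074, 3.57 to 4.08 CPM in PEO-4 (log2 fold change -8.49, adjusted p = 2.55e-11) and 1471 to 2142 CPM in SKOV-3 (0.27, adjusted p = 0.309). SPARC, which binds collagen, was at 512 to 2251, 33.4 to 43.8 and 20.2 to 44.5 CPM and lower in both cancer lines (-4.97, adjusted p = 9.04e-08 and -5.16, adjusted p = 9.48e-08), as was THBS1, thrombospondin 1 (-3.26, adjusted p = 3.77e-06 and -1.61, adjusted p = 0.00147). BGN, a small leucine-rich proteoglycan that binds type I collagen, was the 1 organizer higher in PEO-4, at 0.049 to 0.252 CPM in T1074 and 209 to 293 in PEO-4 (10.89, adjusted p = 9.7e-09), with 0.041 to 2.21 CPM in SKOV-3 (2.72, adjusted p = 0.0131).

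Of the genes whose proteins join type IV collagen in basement membranes, 10 of 11 were tested. PEO-4 had 5 higher, 4 lower and 1 that did not pass, of 10 tested (median log2 fold change 0.72). SKOV-3 had 7 higher, 2 lower and 1 that did not pass, of 10 tested (median 1.81). Among all genes tested 36.3% were higher and 37.8% lower in PEO-4, near the counts of this list, and 33.3% were higher and 34.5% lower in SKOV-3. NID1, nidogen, which bridges type IV collagen and laminin, was at 86.4 to 194 CPM in T1074, 0.0586 to 0.362 CPM in PEO-4 (log2 fold change -9.74, adjusted p = 6.01e-11) and 1.72 to 2.73 CPM in SKOV-3 (-6.01, adjusted p = 8.08e-10). HSPG2, perlecan, was lower in PEO-4 (-0.74, adjusted p = 0.0111) and higher in SKOV-3 (1.54, adjusted p = 4.72e-05). AGRN, agrin, was higher in both cancer lines (0.77, adjusted p = 0.000377 and 1.3, adjusted p = 4.05e-06), and so was FBLN1, fibulin 1, from 0.151 to 0.871 CPM in T1074 to 7.76 to 10.1 in PEO-4 (4.39, adjusted p = 1.34e-08) and 43.7 to 58.7 in SKOV-3 (6.90, adjusted p = 2.9e-10).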

How the data were processed

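RNA of 12 libraries was sequenced, and per the labels and the study's methods the authors ran bcl2fastq 2.20.0.422, Trimmomatic 0.39, STAR 2.7.3a and RSEM 1.3.1 on hg38, with their own GENCODE annotation. The deposited isoform tables hold expected counts, TPM, FPKM and percent of the gene level per transcript, as the authors' RSEM runs wrote them. Although the label for the molecule reads protein, the tables were treated as RNA-seq. Here expected counts of 244939 transcripts were summed by gene and rounded, and 61369 of 61533 gene IDs were matched to GENCODE 44. Genes were tested with edgeR 4.0.16 under R 4.3.3 (quasi-likelihood F-test), fitting all 12 libraries together with the line as factor, TMM factors, the default filter by line (19898 genes kept) and adjustment over all of them at a threshold of 0.05. A standard error is the absolute log2 fold change over the root of F. FPKM here are expected counts over effective length with the same TMM factors, summed over transcripts. Deposited TPM entered only an alternative with length-scaled counts, and deposited FPKM and percent were not used. Counting intervals are exact at the 95% level and cover counting error only, and a floor of 3 counts per library stands for lines at 0. Of the collagens, 22 overlap a gene on the other strand, and in 7 that gene held over 10% of their counts. All collagens were named, with up to 4 members of each pathway list by mean length-normalised level. The members and lists were chosen with earlier results of these data known. Starts and promoter windows come from RefSeq and GENCODE tables on GRCh38. Scripts were tested on simulated data, and DESeq2 1.42.0, other scalings and filters, a replicate block and leaving out each library were tried as alternatives.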

Additional observations from a re-analysis of the deposited data

Results flagged for a closer look

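In 7 of 100 groups of 4 libraries with a collagen gene, 1 library lay far from the other 3 by Dixon's test, where chance flags about 1 group in 20. These were COL4A1 in PEO-4 replicate 2 (0.386 CPM, next 0.107), COL4A4 in SKOV-3 replicate 4 (14.5 CPM, next 16.8), COL5A3 in PEO-4 replicate 3 (0.0215 CPM, the others at 0), COL9A1 in SKOV-3 replicate 2 (0 CPM, next 0.0195), COL15A1 in PEO-4 replicate 1 (0.0879 CPM, next 0.0483), COL16A1 in T1074 replicate 2 (3.39 CPM, next 9.20) and COL23A1 in SKOV-3 replicate 4 (1.27 CPM, next 2.17). COL5A3 and COL9A1 rest on single counts there.

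For 7 genes the differences from T1074 passed in both cancer lines with opposite directions. The rule for this list also required PEO-4 against SKOV-3 to pass in edgeR, so that pass is no further support. The share of all genes tested that meets the same rule was not determined. The log2 fold changes between the cancer lines were -5.74 for COL1A2, -4.64 for COL4A4, -7.15 for COL5A1, -6.32 for COL7A1, -4.46 for COL9A2, -5.46 for COL12A1 and 1.64 for COL27A1.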

How the results depend on the processing

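No count of collagens called changed by over 1.5 times under any alternative, and of 89 calls 72 were kept in all 21 alternative fits (25 of 30 in PEO-4 and 22 of 27 in SKOV-3 against T1074, 25 of 32 between the cancer lines), 6 were kept wherever the gene was tested but were not tested in at least 1 fit, and 11 were lost in some fit. Leaving out 1 library gave 4 to 6 higher and 25 to 26 lower in PEO-4, 10 to 11 higher and 14 to 18 lower in SKOV-3, and 11 to 13 higher and 17 to 19 lower in PEO-4 against SKOV-3. Replicate numbers did not pair the samples (correlations of deviations -0.0792 to 0.0692), and a replicate block gave 5 higher and 25 lower, 11 and 15, and 13 and 18. Under the block COL6A3 lost its calls in SKOV-3 against T1074 (adjusted p = 0.0552) and between the cancer lines (adjusted p = 0.0585), COL11A2 lost its call in SKOV-3 (adjusted p = 0.0659), and COL4A1 passed as higher there (0.82, adjusted p = 0.0473). Without one library, the fibrillar share stayed at 39.7% to 47.3% (T1074), 5.70% to 6.51% (PEO-4) and 9.23% to 11.2% (SKOV-3), and the basement membrane share at 13.7% to 14.2%, 4.06% to 4.87% and 18.3% to 20.2%. Without length correction, which also changed the order of classes in SKOV-3 given above, the fibrillar share of SKOV-3 moved to 12.9% and the basement membrane share of T1074 to 15.6%.

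Directions reversed in genes that had not passed, and in COL11A2. COL25A1 in PEO-4 against T1074, at -0.06 on the log2 scale, was 0.0181 with RLE factors, 0.0214 with DESeq2, 0.0434 with the block, 0.0563 with 8 libraries, 0.0547 on protein-coding genes, 0.68 on length-scaled counts and -0.30 to 0.38 without 1 library. COL14A1 in PEO-4 against SKOV-3 was 0.0432 on protein-coding genes and -0.31 to 0.23 without 1 library. On length-scaled counts COL10A1 was 0.43 in SKOV-3 against T1074 and -0.23 in PEO-4 against SKOV-3, and COL11A2 was 0.15 in SKOV-3 against T1074. COL4A2 in SKOV-3 was -0.00116 without T1074 replicate 3. On length-scaled counts COL9A2 and COL9A3 in PEO-4 and COL27A1 and COL25A1 in SKOV-3 lost their calls against T1074 (adjusted p = 0.0504, 0.0861, 0.108 and 0.211), as did COL13A1 between the cancer lines (adjusted p = 0.24). COL4A3 and COL11A2 in PEO-4 gained one (1.72, adjusted p = 0.0103, and 1.33, adjusted p = 0.0105). With library size in place of TMM, the medians over all genes moved by -0.16 in PEO-4 and -0.20 in SKOV-3, and COL27A1 in PEO-4 lost its call (adjusted p = 0.0888). With no filter beyond 1 count COL25A1 lost its calls in SKOV-3 against T1074 and between the cancer lines (adjusted p = 0.0575 and 0.0562), and COL11A2 passed in PEO-4 against T1074 with RLE factors and on protein-coding genes (adjusted p = 0.042 and 0.0373). The causes were not tested. Depth limits the genes with few counts, whose ratios have wide intervals.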

Other observations

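Some genes of collagen processing and a basement membrane partner, all outside the naming rule, had widely different means over the 4 libraries of each line. They were chosen after their values were seen. FKBP10, a collagen chaperone, was at a mean of 89.2, 261 and 0.342 CPM in T1074, PEO-4 and SKOV-3. P3H3, a prolyl 3-hydroxylase, was at 66.0, 0.182 and 29.3 CPM. LOXL4, a lysyl oxidase, was at 1.23, 109 and 1.31 CPM, and NID2, a nidogen, at 0.981, 1.80 and 85.5 CPM.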
